A study of Mus musculus with 12 samples.

Results

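This account covers the untreated arm of a differentiation time course in MC3T3-E1 cells, a mouse preosteoblast line of wild-type genotype, and sets its day 21 libraries against its day 14 libraries. The members are 4 of the 12 libraries of the series: 2 control day 21 libraries and 2 control day 14 libraries, chosen by their labels. All 4 had been brought to differentiate toward bone, starting 2 days after the cells became confluent, and none received interferon. The other libraries are 2 at control day 0 and 6 of a second arm, labelled as treated with mouse interferon beta (IFN), one of the type I interferons, and taken at the same 3 days. IFN was given from the start of differentiation, which is day 0, and the labels do not say whether the IFN day 0 libraries had been exposed. Both arms are the same immortalized line in culture, so bone tissue and its other cells are absent from the model. The labels do not say whether replicates are separate cultures, so every p-value measures only the spread between these libraries, which may be technical.

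Osteoblasts secrete type I collagen and other matrix proteins and then load that matrix with mineral. In culture, MC3T3-E1 cells pass over weeks through proliferation, matrix deposition and mineralization, marked in turn by type I collagen, alkaline phosphatase (Alpl) and the late genes for bone sialoprotein (Ibsp), osteocalcin (Bglap) and dentin matrix protein (Dmp1). A secretory cell depends on chaperones of the endoplasmic reticulum (ER). When unfolded protein accumulates there, the unfolded protein response raises those chaperones, and heat or oxidants raise cytosolic heat shock proteins and antioxidant genes.

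The control day 21 libraries held 33994237 and 33411108 counts and the day 14 libraries 33615915 and 32018132. Replicates of this arm lay further apart than those of the IFN arm: the median SD of log2 CPM (CPM, counts relative to the TMM-scaled library size; prior count 2) between replicates was 0.422 at control day 21 and 0.224 at control day 14, against 0.0786 to 0.102 in the 3 IFN groups. The biological coefficient of variation was 0.3799 over the 6 control libraries and 0.0635 over the 6 IFN libraries. The TMM factor of control day 21 replicate 2 was 0.817, and those of the other 11 libraries ran from 0.974 to 1.07. Osteoblast lineage markers were present in all 4 libraries, led by Col1a2 at 12322 and 7071 CPM at day 21, against 11366 and 8503 CPM at day 14. Among markers of other cells, Pparg, Myod1, Myf5, Epcam, Emcn, Tyrobp and Sox10 had 0 counts in the 4 libraries.

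Control day 21 replicate 2 stood apart from the other 3 libraries most clearly by ER chaperone, heat shock and immediate early genes, described below. It lay at least 1 log2 unit above both day 14 libraries for 1645 genes and below both for 1651. Replicate 1 did so for 454 and 487 genes. Differences common to both day 21 libraries are therefore kept apart below from those of replicate 2 alone.

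No gene passed the test between the groups as a whole. Of 16103 genes tested, edgeR's quasi-likelihood test called 0 (0%) at an adjusted p below 0.05 (Benjamini-Hochberg over all genes), with a lowest adjusted p of 0.706. At an unadjusted p below 0.05 there were 1098 genes (6.82%). DESeq2 called 77 genes, limma with library weights called 0, and edgeR over all 12 libraries called 5 of 17289 (0.0289%). Both day 21 libraries lay on one side of both day 14 libraries for 6071 genes (37.7%).

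A gene was counted as shared when both day 21 libraries lay at least 1 log2 unit above, or below, both day 14 libraries. That held for 211 genes higher at day 21 (1.31%) and 155 genes lower (0.963%). The rule uses these 4 libraries, so the counts and values are a description with no test. Predicted or unnamed loci made up 70 of the 211 and 54 of the 155, and 57 and 35 averaged at least 1 log2 CPM over the 4 libraries. Among the shared higher genes the median difference from the day 14 mean was 1.82 log2 units in replicate 1 and 2.52 in replicate 2, and among the shared lower genes it was -1.70 and -2.15. Replicate 2 lay further out than replicate 1 for 166 of the 211 and 101 of the 155. For 79 and 38 genes it lay at least 1 log2 unit beyond replicate 1 and both day 14 libraries. Those genes also meet the rule for replicate 2 alone given below. At the limit, Txk was inside with a gap of 1.003 log2 unit and Olfml1 was inside the lower set with a gap of 1.01, while Kank4 was just outside it with 0.997.

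**Figure D1:**
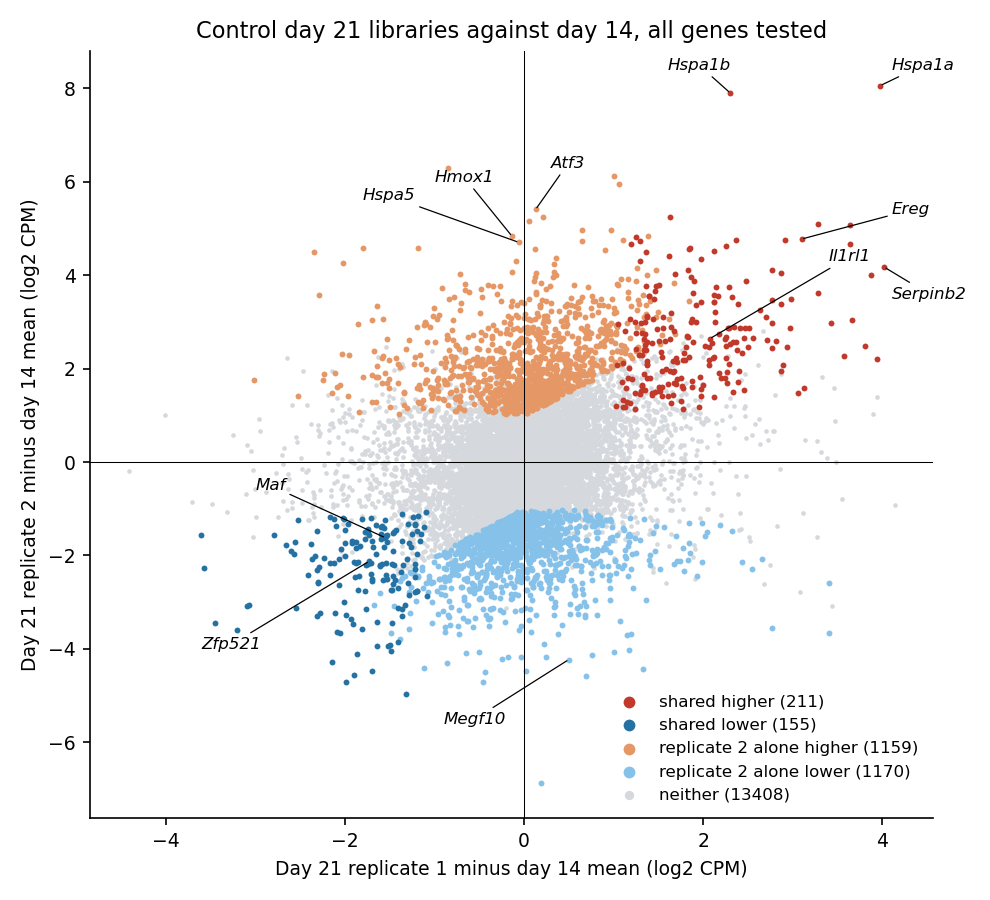
Each point is 1 of 16103 genes; axes give the difference in log2 CPM of control day 21 replicate 1 (horizontal) and replicate 2 (vertical) from the mean of the control day 14 libraries. The 211 shared higher genes lie at upper right and the 155 shared lower genes at lower left. Replicate 2 is further out than replicate 1 for 166 and 101 of them. The genes of replicate 2 alone spread up and down near 0 on the horizontal axis.

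Ligands of the epidermal growth factor (EGF) receptor family formed a shared group; they are shed from the cell surface and act on the same or neighbouring cells. Of 7 ligand genes, 5 were tested and 4 were shared higher (all genes: 1.31%): Ereg (epiregulin), Areg (amphiregulin), Btc (betacellulin) and Hbegf (heparin-binding EGF-like growth factor). The list was drawn up after values were seen. By edgeR 0 of the 5 were called, with 4 at an unadjusted p below 0.05 (all genes: 1098 of 16103). DESeq2 called 4 (all genes: 77 of 16103) and limma with library weights 0. With no filter on low counts edgeR called 4 (all genes: 287 of 16103). Epgn and Tgfa had 10 and 12 counts over the 4 libraries and were not tested. Ereg, Areg and Btc lie near each other on chromosome 5 (GRCm38, chr5:91074622-91093646 on the plus strand, chr5:91139599-91148432 on the plus strand and chr5:91357261-91402994 on the minus strand).

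Ereg had 172 and 549 CPM in the day 21 replicates 1 and 2, against 25.98 and 15.4 CPM at day 14. Both day 21 libraries were higher than both day 14 libraries, and control day 0 was near day 14 with 16.2 and 18.5 CPM. The means were 361 ± 267 CPM at day 21 and 20.7 ± 7.47 CPM at day 14 (SD, n = 2 each), a log2 fold change of 4.12 ± 0.57 (SE; edgeR quasi-likelihood test, adjusted p = 0.706). The adjusted p for Ereg was 7.16e-10 by DESeq2 and 0.163 by limma with library weights. Areg had 20.7 and 56.1 CPM at day 21, against 4.97 and 0.496 CPM at day 14, with a log2 fold change of 3.81 ± 0.97 that was 6.22 without day 14 replicate 1. The groups did not overlap, although the day 14 libraries themselves differed widely. Hbegf had 23.2 and 121 CPM at day 21 and 10.5 and 3.30 CPM at day 14, and Btc had 8.604 and 2.93 CPM at day 21 and 1.19 and 0.729 CPM at day 14. Btc was the ligand with its higher day 21 value in replicate 1. Egf itself was low, with 0.427 and 0.880 CPM at day 21 and 0.952 and 1.72 CPM at day 14.

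The promoter window of Areg (RefSeq, GRCm38.p6, chr5:91139349-91139648, plus strand, from 250 bases before to 50 bases after the start of transcription) is shown because it holds the letters TGACGTCA, the palindrome bound by cAMP-responsive factors. They begin 61 bases before the start and are in capitals:
Areg: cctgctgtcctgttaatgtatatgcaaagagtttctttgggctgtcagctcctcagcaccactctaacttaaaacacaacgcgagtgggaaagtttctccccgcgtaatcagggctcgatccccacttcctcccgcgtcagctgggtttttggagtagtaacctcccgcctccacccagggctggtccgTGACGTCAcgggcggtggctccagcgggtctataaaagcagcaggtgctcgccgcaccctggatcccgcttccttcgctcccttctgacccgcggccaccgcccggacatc
These letters were found, on either strand, in 4 of 122 shared higher genes with a window (3.28%), in 379 of 11147 tested genes with a window (3.4%) and in 588 of all 32851 windows (1.79%). The share in the shared genes is near that of all tested genes.

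Feedback genes of the ERK pathway, the kinase cascade below the EGF receptor, included further shared members. Of 14 tested in a list also drawn up after values were seen, 7 were shared higher (all genes: 1.31%). They were the phosphatases Dusp2, Dusp4, Dusp5 and Dusp6, which inactivate MAP kinases, the inhibitor Spry4, the transcription factor Etv5, and Phlda1. Dusp5 had 53.02 and 259 CPM at day 21, against 21.7 and 10.2 CPM at day 14. Dusp6 had 62.5 and 140 CPM at day 21, against 28.9 and 20.7 CPM at day 14. In each, replicate 2 was highest and replicate 1 still lay above both day 14 libraries. Phlda1 was less settled over the course, with 39.0 and 258 CPM at day 21, 12.9 and 8.92 CPM at day 14, and 45.9 and 25.1 CPM at day 0. The remaining 7 members were not shared, and Spry1 had 22.5 and 2.35 CPM at day 21 with 14.7 and 4.37 CPM at day 14. In this list edgeR called 0, with 9 at an unadjusted p below 0.05 (all genes: 1098 of 16103). DESeq2 called 5 (all genes: 77 of 16103) and limma with library weights 0. With no filter on low counts edgeR called 7 (all genes: 287 of 16103).

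Genes of extracellular proteolysis and receptors followed. Serpinb2, an inhibitor of urokinase, had 24.9 and 27.7 CPM at day 21, against 1.87 and 1.17 CPM at day 14. The day 21 replicates nearly coincided, and the log2 fold change was 4.11 ± 0.62 (edgeR quasi-likelihood test, adjusted p = 0.706). The adjusted p for Serpinb2 was 8.98e-09 by DESeq2 and 0.163 by limma with library weights. Plaur, the urokinase receptor, had 79.2 and 189 CPM at day 21, against 24.0 and 26.7 CPM at day 14. Its control day 0 values lay near day 14, at 33.8 and 23.9 CPM. Il1rl1, the interleukin-33 receptor, had 335 and 497 CPM at day 21, against 92.9 and 68.5 CPM at day 14. Bdkrb2, a bradykinin receptor, had 39.2 and 42.1 CPM at day 21, against 11.7 and 3.73 CPM at day 14.

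The shared higher genes that follow had replicate 2 far above replicate 1. Ereg, Areg, Hbegf, Dusp5, Dusp6 and Phlda1, given above, also had replicate 2 more than 1 log2 unit above replicate 1. Ptgs2, which makes prostaglandin precursors, had 244 and 2154 CPM at day 21, against 103 and 87.5 CPM at day 14. Slc7a11, the cystine transporter, had 158 and 523 CPM at day 21, against 53.01 and 34.4 CPM at day 14. Hspa1b, an inducible heat shock protein 70, had 132 and 6419 CPM at day 21, against 27.5 and 26.1 CPM at day 14. Replicate 1 exceeded day 14 in all 3 genes, by a fraction of the excess in replicate 2. Hspa1a had 20.7 and 352 CPM at day 21, against 1.16 and 1.37 CPM at day 14. It is a near-identical copy of Hspa1b, so the split of reads between them is uncertain. The small heat shock gene Hspb1 had 86.3 and 1070 CPM at day 21, against 26.2 and 29.8 CPM at day 14. The MHC-like gene H2-M9 had 10.9 and 27.0 CPM at day 21, against 2.50 and 2.42 CPM at day 14, and is likewise uncertain because of close relatives.

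**Figure D2:**
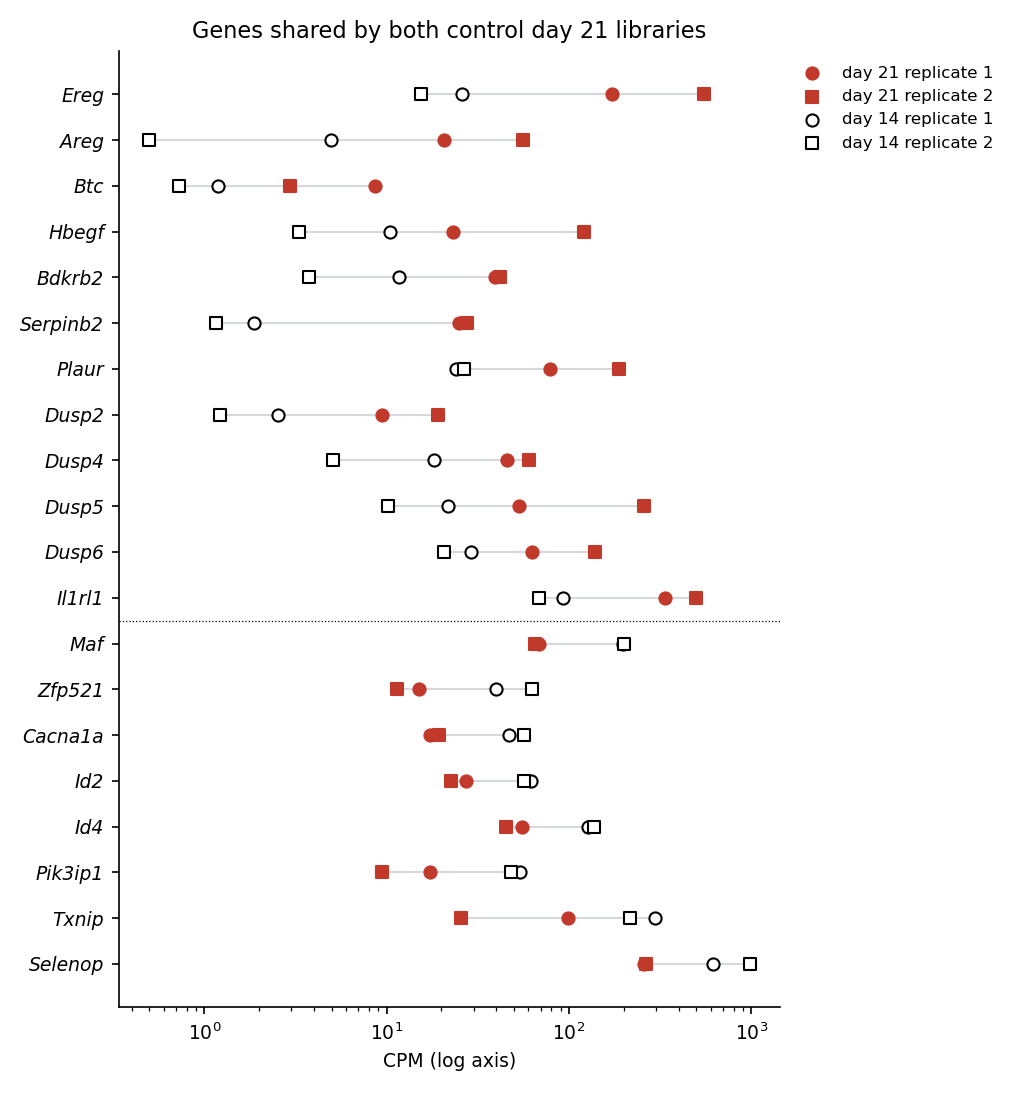
CPM on a log axis for 12 shared higher genes (above the dotted line) and 8 shared lower genes (below it); filled symbols are control day 21 and open symbols control day 14, circles replicate 1 and squares replicate 2. Ereg sits at 172 and 549 CPM at day 21 and 25.98 and 15.4 CPM at day 14, and Maf at 68.1 and 64.8 CPM at day 21 and 197 and 202 CPM at day 14.

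Shared lower genes included regulators of osteoblast transcription. Maf, a basic leucine zipper factor, had 68.1 and 64.8 CPM at day 21, against 197 and 202 CPM at day 14. Its replicates were closely matched in both groups, with means of 66.5 ± 2.38 CPM at day 21 and 199 ± 3.37 CPM at day 14 (SD, n = 2 each) and a log2 fold change of -1.58 ± 0.26 (edgeR quasi-likelihood test, adjusted p = 0.706). At control day 0, Maf had 73.9 and 93.2 CPM, so the day 14 libraries were the high ones of the course. Zfp521, a zinc finger protein that represses Runx2 activity, had 15.0 and 11.4 CPM at day 21, against 39.7 and 62.8 CPM at day 14. Id2 and Id4, helix-loop-helix inhibitors and known targets of bone morphogenetic proteins (BMP), were lower together: Id2 had 27.3 and 22.4 CPM at day 21 and 61.9 and 56.8 CPM at day 14. Id4 had 55.6 and 45.2 CPM at day 21, against 127 and 138 CPM at day 14. Neither group overlapped the other for these 4 genes. DESeq2 called Maf (adjusted p = 0.000204) and Zfp521 (0.000797) but not Id2 (0.186). In the list of BMP and TGF-beta pathway genes, 29 were tested, and Id2 and Id4 were the shared lower members (all genes: 0.963%).

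Further down the shared lower set, Cacna1a, a subunit of a voltage-gated calcium channel, had 17.4 and 19.5 CPM at day 21, against 47.2 and 56.7 CPM at day 14. Its day 0 values were higher still, at 96.5 and 87.4 CPM. Pik3ip1, an inhibitor of phosphoinositide 3-kinase, had 17.4 and 9.39 CPM at day 21, against 53.6 and 48.0 CPM at day 14. Txnip, which binds thioredoxin, had 98.6 and 25.8 CPM at day 21, against 298 and 217 CPM at day 14. Selenop, a secreted selenium carrier, had 258 and 265 CPM at day 21, against 614 and 985 CPM at day 14. In all 4 genes the 2 day 21 libraries were the lowest of the 4 compared. Ccdc152, with 2.11 and 1.06 CPM at day 21 and 5.51 and 7.46 CPM at day 14, overlaps Selenop on the opposite strand (GRCm38, chr15:3280070-3303526 and chr15:3268547-3280508), and without stranded counting their reads cannot be told apart. The matrix metalloproteinase Mmp11 had 82.8 and 81.2 CPM at day 21, against 195 and 255 CPM at day 14. Ntrk3, a neurotrophin receptor, was low throughout, with 1.34 and 0.660 CPM at day 21, against 8.99 and 5.02 CPM at day 14.

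The IFN arm shares no library with this comparison, and the shared genes were read there in separate libraries. The labels do not say whether those are separate cultures. That comparison was fitted on the 6 IFN libraries by the same test. Of 15491 genes tested in both arms, it called 2564 higher (16.6%) and 2185 lower (14.1%) at IFN day 21 than at IFN day 14. Of the 211 shared higher genes, 163 were tested there, and 63 rose (38.7%) and 1 fell. Among genes that averaged at least 1 log2 CPM in the 4 control libraries compared, 45 of 57 shared higher genes rose in the IFN arm (78.9%). Over all such genes 2380 of 11544 rose (20.6%). The median log2 fold change was 0.97 for the 57, against -0.01 over all. The filter on average level uses the day 21 values that define the class, so a gene low at day 14 could pass through them. The filtered share therefore rests partly on the values that chose the genes. The gene among the 57 that fell was Cxcl10, an interferon-inducible chemokine, at -0.95. Fitted with all 12 libraries, whose spread the control arm dominates, the IFN comparison had 0 calls among these genes; DESeq2 on the IFN libraries gave 77.2% of the 57, and leaving out single day 14 or day 21 IFN libraries 70.2% to 78.9%.

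The EGF receptor ligands and ERK feedback genes were among those that rose with IFN. Ereg had 152 and 134 CPM at IFN day 21, against 36.9 and 35.9 CPM at IFN day 14, with a log2 fold change of 1.97 ± 0.07 (edgeR quasi-likelihood test, adjusted p = 2.62e-18). Areg rose by 3.54 ± 0.39 on the log2 scale, Hbegf by 1.86 and Btc by 1.29, so the 4 ligands shared in control all passed the test there. All 14 tested ERK feedback genes rose (all genes: 16.6%), with a median of 1.06. Both lists were drawn up after values were seen, so these counts are a description. Serpinb2 had 10.5 and 7.72 CPM at IFN day 21, against 4.56 and 4.45 CPM at IFN day 14. It rose by 1.01 ± 0.21 on the log2 scale. The IFN change was the smaller of the 2 arms, a difference that did not pass its own test (3.08 ± 0.64, control minus IFN, edgeR quasi-likelihood test over 12 libraries, adjusted p = 0.652).

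Of the 155 shared lower genes, 137 were tested in the IFN arm. Of these, 19 fell (13.9%, against 14.1% of all genes) and 3 rose. Of those averaging at least 1 log2 CPM, 13 of 35 fell (37.1%), against 2072 of 11544 (17.9%), and 2 rose. This filter too uses the values that chose the genes. Txnip fell, at a log2 fold change of -1.50, as did Pik3ip1 at -0.74, Mmp11 at -0.53, Zfp521 at -0.44 and Cacna1a at -0.25. The last 2 calls were lost under some settings. Cacna1a (adjusted p = 0.0430) missed the threshold with RLE scaling (0.0506), DESeq2 (0.0694), limma with library weights (0.144) and only the 4 libraries compared (0.143), and without any single IFN library other than day 21 replicate 2 (0.0703 to 0.322). Zfp521 missed it without IFN day 14 replicate 1 (adjusted p = 0.206) or day 21 replicate 2 (0.281), by edgeR. Maf had 83.4 and 74.4 CPM at IFN day 21, against 84.2 and 76.4 CPM at IFN day 14, and Id2 had a log2 fold change of 0.03 ± 0.09. These 2 did not pass the test in the IFN arm, where Maf lay near its control day 0 level at both days. The difference between arms was -1.58 ± 0.23 for Maf (control minus IFN, edgeR quasi-likelihood test over 12 libraries, adjusted p = 0.498). Over all 17289 genes that test of the difference called 0 (0%), with 1315 at an unadjusted p below 0.05 (7.61%) and 31 by DESeq2.

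**Figure D3:**
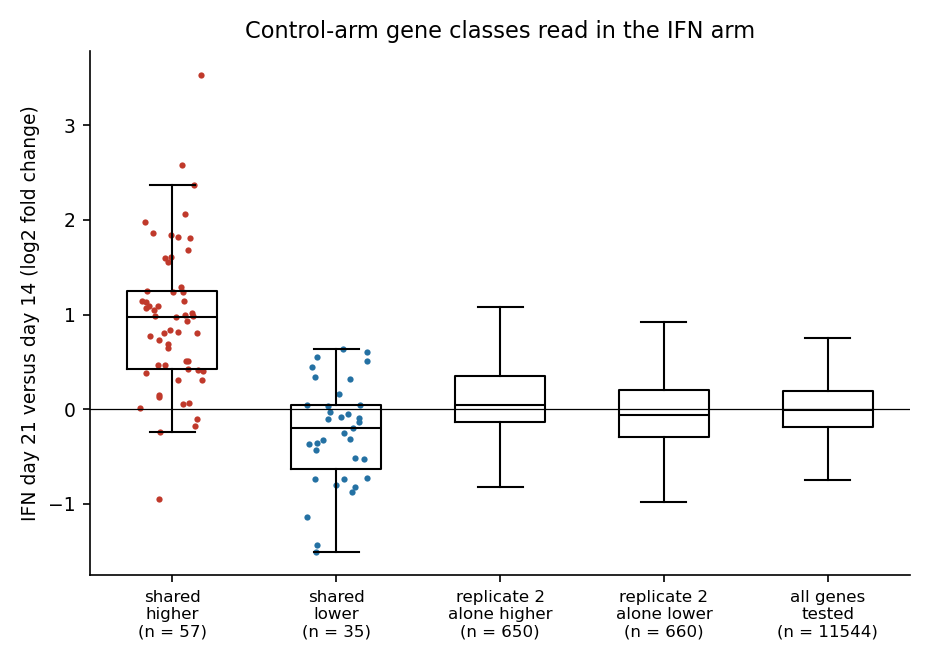
Log2 fold change of IFN day 21 against IFN day 14 (vertical axis) for genes that average at least 1 log2 CPM, grouped by their class in the control arm; boxes give the median and quartiles, whiskers span the values that are not outlying, and points are single shared genes. The 57 shared higher genes have a median of 0.97 and the 11544 genes tested a median of -0.01.

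A gene was assigned to replicate 2 alone when that library lay at least 1 log2 unit above, or below, each of the other 3 libraries. That held for 1238 genes higher (7.69%) and 1208 genes lower (7.5%). After 79 and 38 genes that were also shared are set aside, 1159 and 1170 remain. The same rule gave 187 genes higher (1.16%) and 269 lower (1.67%) for day 21 replicate 1 alone. For day 14 it gave 232 (1.44%) and 212 (1.32%) for replicate 1, and 198 (1.23%) and 386 (2.4%) for replicate 2. Scaled by library size alone, which shifts the median gene of replicate 2 to -0.36 log2 units from day 14, the genes of replicate 2 alone number 666 higher and 2105 lower. In replicate 1, 438 of the 1159 lay above both day 14 libraries, 322 below both and 399 between them. Of the 1170, 347 lay above both, 446 below both and 377 between them, so replicate 1 leaned toward the side of replicate 2 in both sets.

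Among the lists examined, ER chaperones and folding enzymes had the highest share of members higher in replicate 2 alone. Of 25 tested, 19 were higher in replicate 2 alone (all genes: 1159 of 16103) and none was shared. By edgeR 0 were called, with 14 at an unadjusted p below 0.05. DESeq2 called 1, Hspa5 (adjusted p = 0.0177), limma with library weights 0, and edgeR with no filter on low counts 4. The list's median difference from day 14 was -0.06 log2 units in replicate 1 and 2.21 in replicate 2, against 0.01 and -0.02 over all genes. Its summed level was 7550 and 71352 CPM at day 21 in replicates 1 and 2, against 10372 and 7308 CPM at day 14. Hspa5, the master ER chaperone BiP (GRCm38, chr2:34771970-34777547), had 937 and 25441 CPM at day 21, against 1115 and 855 CPM at day 14. Replicate 1 lay within the day 14 values and replicate 2 far above them. The means of 13189 ± 17327 CPM at day 21 and 985 ± 183 CPM at day 14 (SD, n = 2 each) gave a log2 fold change of 3.74 ± 1.22 (edgeR quasi-likelihood test, adjusted p = 0.706), and without replicate 2 it was -0.09. Hsp90b1, the ER member of the heat shock 90 family, had 705 and 12126 CPM at day 21, against 965 and 828 CPM at day 14. Calr, the calcium-binding chaperone calreticulin, had 850 and 6581 CPM at day 21, against 880 and 919 CPM at day 14. Pdia4, a disulfide isomerase, had 226 and 4769 CPM at day 21, against 224 and 257 CPM at day 14.

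The promoters of 3 of these chaperones are shown because they hold the ER stress response element, spelled CCAAT, 9 bases of any kind and CCACG, to which factors of the unfolded protein response bind. The windows come from RefSeq (GRCm38.p6, 250 bases before to 50 bases after the start of transcription), each in the direction of the gene, with matches on either strand in capitals. They are chr2:34771840-34772139 on the plus strand for Hspa5, chr10:86705395-86705694 on the minus strand for Hsp90b1 and chr8:84846882-84847181 on the minus strand for Calr:
Hspa5: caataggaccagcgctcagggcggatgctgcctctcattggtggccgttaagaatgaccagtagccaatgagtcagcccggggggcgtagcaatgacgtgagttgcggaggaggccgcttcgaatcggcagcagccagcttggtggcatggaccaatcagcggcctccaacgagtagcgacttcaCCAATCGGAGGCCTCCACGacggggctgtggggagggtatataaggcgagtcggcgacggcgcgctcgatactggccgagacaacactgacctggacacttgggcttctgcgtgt
Hsp90b1: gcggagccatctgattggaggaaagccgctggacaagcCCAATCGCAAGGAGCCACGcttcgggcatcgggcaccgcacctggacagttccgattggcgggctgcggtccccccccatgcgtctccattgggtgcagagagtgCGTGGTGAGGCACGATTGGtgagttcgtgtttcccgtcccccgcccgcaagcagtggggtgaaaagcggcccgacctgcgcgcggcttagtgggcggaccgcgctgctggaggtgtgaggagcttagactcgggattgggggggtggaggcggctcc
Calr: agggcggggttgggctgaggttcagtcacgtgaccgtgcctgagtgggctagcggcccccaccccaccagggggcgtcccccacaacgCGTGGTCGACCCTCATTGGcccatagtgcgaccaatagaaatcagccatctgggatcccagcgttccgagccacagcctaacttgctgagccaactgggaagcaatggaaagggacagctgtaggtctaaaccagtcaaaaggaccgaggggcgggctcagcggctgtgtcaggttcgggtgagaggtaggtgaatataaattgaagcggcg
Hspa5 has 1 match, beginning 65 bases before the start, Hsp90b1 has 2 and Calr has 1. Of the 19 chaperone genes higher in replicate 2 alone, 16 had a window, and 7 of these held the element (43.8%): Calr, Canx, Creld2, Dnajc3, Hsp90b1, Hspa5 and Pdia6. It was found in 0 of 5 other tested chaperones with a window, in 19 of 11147 tested genes (0.17%) and in 39 of 32851 windows in all (0.119%). The heat shock element, spelled GAA, TTC and GAA with 2 bases of any kind between each, was found in 4 of 10 cytosolic heat shock genes higher in replicate 2 alone (Chordc1, Hspd1, Hspe1 and Hsph1), in 0 of 6 other tested members and in 65 of 11147 tested genes (0.583%). The C/EBP-ATF element TGATGCAAT was found in 1 of 16 integrated stress response targets higher in replicate 2 alone (6.25%), in 2 of 12 other tested members (16.7%) and in 19 of 11147 tested genes (0.17%). The antioxidant response element, spelled TGAC, 3 bases of any kind and GCA, was found in 2 of 6 oxidative defence genes higher in replicate 2 alone (33.3%), in 0 of 17 other tested members and in 384 of 11147 tested genes (3.44%). Over all 750 genes higher in replicate 2 alone with a window, the ER stress response element was found in 10 (1.33%). The heat shock element was found in 10 (1.33%), the antioxidant response element in 44 (5.87%) and the C/EBP-ATF element in 3 (0.4%). The shares within lists therefore do not describe the class as a whole. A match is a run of letters, and binding was not measured.

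The remaining stress groups were high in the same library. Over all genes, 1159 of 16103 were higher in replicate 2 alone and 211 were shared higher (1.31%). Of 21 cytosolic heat shock genes, 13 were higher in replicate 2 alone and 3 were shared, with list medians of 0.23 in replicate 1 and 2.30 in replicate 2. Dnajb1, a co-chaperone, had 84.1 and 1687 CPM at day 21, against 69.7 and 41.1 CPM at day 14. Of 33 targets of the integrated stress response, which slows translation and induces amino acid genes, 20 were higher in replicate 2 alone and 1, Slc7a11, was shared. Atf3, a transcription factor of that response, had 21.6 and 839 CPM at day 21, against 17.0 and 22.8 CPM at day 14. Ddit3, the factor CHOP, had 91.7 and 1444 CPM at day 21, against 154 and 147 CPM at day 14. Replicate 1 was the lowest of the 4 libraries for Ddit3 and lay within the day 14 values for Atf3.

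Among 25 immediate early genes, which respond within minutes to many stimuli, 17 were higher in replicate 2 alone (all genes: 1159 of 16103). A further 1, Egr3, was shared. The list medians were 0.18 in replicate 1 and 2.66 in replicate 2. Egr1 had 69.2 and 2266 CPM at day 21, against 53.4 and 67.2 CPM at day 14. Of 28 oxidative defence, iron and NRF2 target genes, 8 were higher in replicate 2 alone. The list medians were 0.19 in replicate 1 and 0.48 in replicate 2, and 0.18 and 0.14 with library size alone. Hmox1, heme oxygenase, had 271 and 8498 CPM at day 21, against 306 and 290 CPM at day 14, and a log2 fold change of 3.88 ± 1.36 that was -0.15 without replicate 2. ER translocation and ER-to-Golgi transport genes gave 10 of 36 and ER-associated degradation genes 6 of 20, while the sensors and factors of the unfolded protein response gave 4 of 14. None of these lists had a member lower in replicate 2 alone.

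In the IFN arm these groups read as follows. Over all genes 16.6% rose and 14.1% fell there. Of the 25 ER chaperones, 16 fell and 1 rose at IFN day 21 against IFN day 14, with a median log2 fold change of -0.26. Hspa5 had 1127 and 1137 CPM at IFN day 21, against 1846 and 1886 CPM at IFN day 14, a log2 fold change of -0.72 ± 0.04 (edgeR quasi-likelihood test, adjusted p = 6.71e-14). Heat shock genes gave 2 that rose and 8 that fell of 21, and integrated stress response targets 7 and 16 of 33. Immediate early genes rose in 22 of 25, with 1 lower and a median of 0.98. Egr1 had 1201 and 973 CPM at IFN day 21, against 163 and 165 CPM at IFN day 14. Over all genes of replicate 2 alone, 209 of 1060 higher genes tested rose in the IFN arm (19.7%) and 116 fell, and of 1122 lower genes 179 fell (16.0%) and 129 rose. Both shares, without a filter on level, lie near those of all genes, 16.6% and 14.1%. Among genes averaging at least 1 log2 CPM in control, 189 of 650 higher genes rose (29.1%, all genes: 20.6%) and 108 fell. Of 660 lower genes at that level, 153 fell (23.2%, all genes: 17.9%) and 109 rose.

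**Figure D4:**
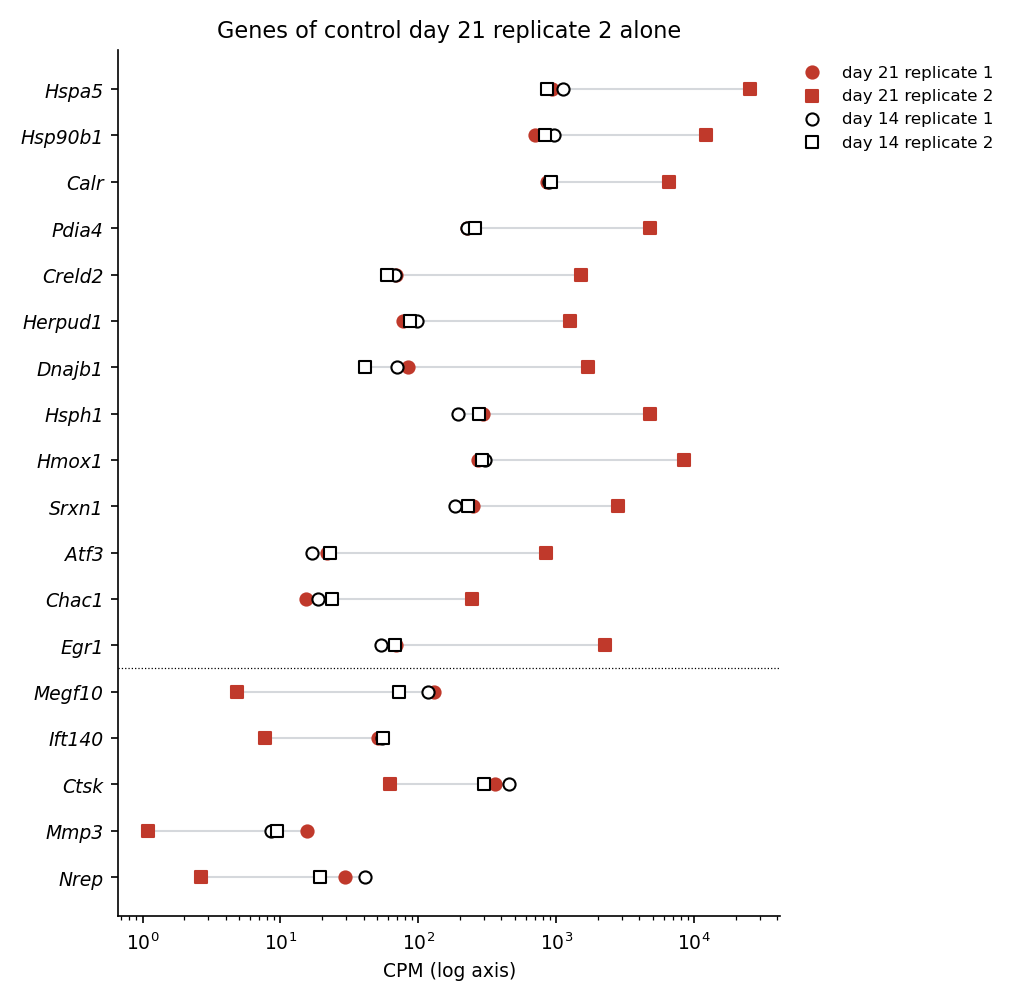
CPM on a log axis for 13 genes higher (above the dotted line) and 5 genes lower (below it) in control day 21 replicate 2 alone; filled symbols are control day 21 and open symbols control day 14, circles replicate 1 and squares replicate 2. For Hspa5 replicate 2 stands at 25441 CPM and the other 3 libraries lie between 855 and 1115 CPM.

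Genes lower in replicate 2 alone came from other groups. Megf10, a receptor for engulfment of dying cells, had 130 and 4.84 CPM at day 21, against 118 and 71.8 CPM at day 14. Nrep had 29.3 and 2.64 CPM at day 21, against 41.1 and 19.4 CPM at day 14, and Mmp3, a secreted metalloproteinase, had 15.5 and 1.10 CPM at day 21, against 8.57 and 9.36 CPM at day 14. Ctsk, the collagen-degrading cathepsin K, had 362 and 62.4 CPM at day 21, against 456 and 299 CPM at day 14. Replicate 2 was the low library each time. Of 19 intraflagellar transport genes, which build the primary cilium and were listed after values were seen, 6 were lower in replicate 2 alone (all genes: 1170 of 16103). Ift140 had 51.0 and 7.67 CPM at day 21, against 54.4 and 55.2 CPM at day 14. In the IFN arm 8 of the 19 fell (all genes: 14.1%) and 1 rose.

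Lists of markers of other cell types did not move together in replicate 2. Over all 16103 genes, 1159 were higher and 1170 lower in replicate 2 alone. Of 10 smooth and skeletal muscle markers tested, of 16 listed, 5 were higher in replicate 2 alone and 1 was shared. Their summed level was 733 and 2394 CPM at day 21, against 699.7 and 1051 CPM at day 14, while Myod1 and Myf5 had 0 counts. Markers of macrophages and osteoclasts summed to 480 and 127 CPM at day 21, against 558 and 381 CPM at day 14, with 8 of 16 tested and Tyrobp at 0. Fibroblast and tendon markers summed to 3850 and 2036 CPM at day 21, against 4373 and 3144 CPM at day 14, with 11 of 18 tested and Tcf21 at 0. For the chondrocyte list (9 of 19 tested) the sums were 391 and 339 CPM at day 21 and 353 and 277 CPM at day 14. Adipocyte markers (9 of 15 tested, Pparg at 0) summed to 142 and 203 CPM at day 21 and 170 and 120 CPM at day 14. Endothelial and epithelial markers (5 of 12 tested) summed to 3.53 and 14.7 CPM at day 21, against 3.51 and 8.34 CPM at day 14, with 3 higher and 1 lower in replicate 2 alone. Neuronal and glial markers (6 of 13 tested) summed to 119 and 89.8 CPM at day 21, against 121 and 80.6 CPM at day 14. The part of such cells in any result was not tested, and in bulk samples fewer cells of a type cannot be told from less RNA per cell.

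No gene of the bone matrix list met the shared rule. Of 28 osteoblast and bone matrix genes tested, 6 lay higher without overlap and 5 lower, near the shares over all genes (18.5% higher and 19.2% lower). edgeR called 0, with 3 at an unadjusted p below 0.05. DESeq2 and limma with library weights called 0, and edgeR with no filter on low counts called 1, Tnn (adjusted p = 0.0438). In all, 7 were higher and 0 lower in replicate 2 alone (all genes: 1159 and 1170 of 16103). The list medians were -0.23 in replicate 1 and 0.13 in replicate 2. With library size alone the median in replicate 2 turned to -0.22. Col1a1, the main collagen chain, had 9501 and 5060 CPM at day 21, against 6446 and 3769 CPM at day 14, and overlapped between groups. Runx2, the master factor of the lineage, had 70.2 and 92.3 CPM at day 21, against 76.7 and 122 CPM at day 14. Sp7 (osterix), which acts with Runx2, had 15.4 and 8.77 CPM at day 21, against 15.8 and 27.5 CPM at day 14. Their log2 fold changes were -0.29 ± 0.31 and -0.84 ± 0.46 (edgeR quasi-likelihood test, adjusted p = 0.829 and 0.710). With single libraries left out that of Runx2 ran from -0.63 (without day 14 replicate 1) to 0.072 (without day 14 replicate 2), and that of Sp7 from -1.33 (without day 21 replicate 1) to -0.40 (without day 14 replicate 2). Alpl had 8.75 and 29.7 CPM at day 21, against 10.4 and 19.5 CPM at day 14, and Sparc, osteonectin, had 2206 and 2227 CPM at day 21, against 1884 and 2189 CPM at day 14. Only Sparc of these 2 kept its groups apart, by less than the spread at day 14.

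Spp1 (osteopontin) and Tnn (tenascin-W) lay above day 14 in both day 21 libraries. Spp1 had 6327 and 7414 CPM at day 21, against 5011 and 2541 CPM at day 14, a log2 fold change of 0.86 ± 0.44 that was 1.40 without day 14 replicate 1 and 0.45 without day 14 replicate 2. Tnn had 286 and 438 CPM at day 21, against 171 and 144 CPM at day 14, a log2 fold change of 1.20 ± 0.32, and had been near absent at day 0 with 1.38 and 1.90 CPM. Cd44, the receptor for hyaluronan and osteopontin, had 566 and 617 CPM at day 21, against 289 and 295 CPM at day 14 (1.02 ± 0.28). None of the 3 passed the edgeR quasi-likelihood test (adjusted p = 0.706 each). DESeq2 called Cd44 (adjusted p = 0.0335) but not Spp1 (0.476) or Tnn (0.108).

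Of 13 mineralization and phosphate handling genes tested in control, 4 lay higher without overlap and 1 lower (all genes: 18.5% and 19.2%), with list medians of 0.63 in replicate 1 and 0.83 in replicate 2. For Dmp1 and Ibsp, the replicates of a day lay further apart than the days. Dmp1 had 54.8 and 6.05 CPM at day 21, against 46.1 and 4.199 CPM at day 14, so replicate 1 was high and replicate 2 low at both days. Ibsp had 23.1 and 13.8 CPM at day 21, against 21.4 and 12.1 CPM at day 14, and 0 counts in both day 0 libraries. The osteocalcin genes Bglap, Bglap2 and Bglap3, which are near copies with uncertain read assignment, stayed below 10 CPM, with replicate 2 the highest: Bglap had 0.285 and 6.82 CPM at day 21, against 0.387 and 0.729 CPM at day 14. In the IFN arm 12 of 12 tested mineralization genes rose (all genes: 16.6%), Dmp1 by 4.67 ± 0.11 on the log2 scale (464 and 475 CPM at IFN day 21, against 15.9 and 21.1 CPM at IFN day 14). The control minus IFN difference for Dmp1 was -4.40 ± 1.48 (edgeR quasi-likelihood test, adjusted p = 0.652). Sox9, the chondrocyte factor named in the title of the series, had 169 and 150.3 CPM at control day 21, against 171 and 139 CPM at control day 14 (0.04 ± 0.31), and rose by 0.69 ± 0.06 in the IFN arm.

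**Figure D5:**
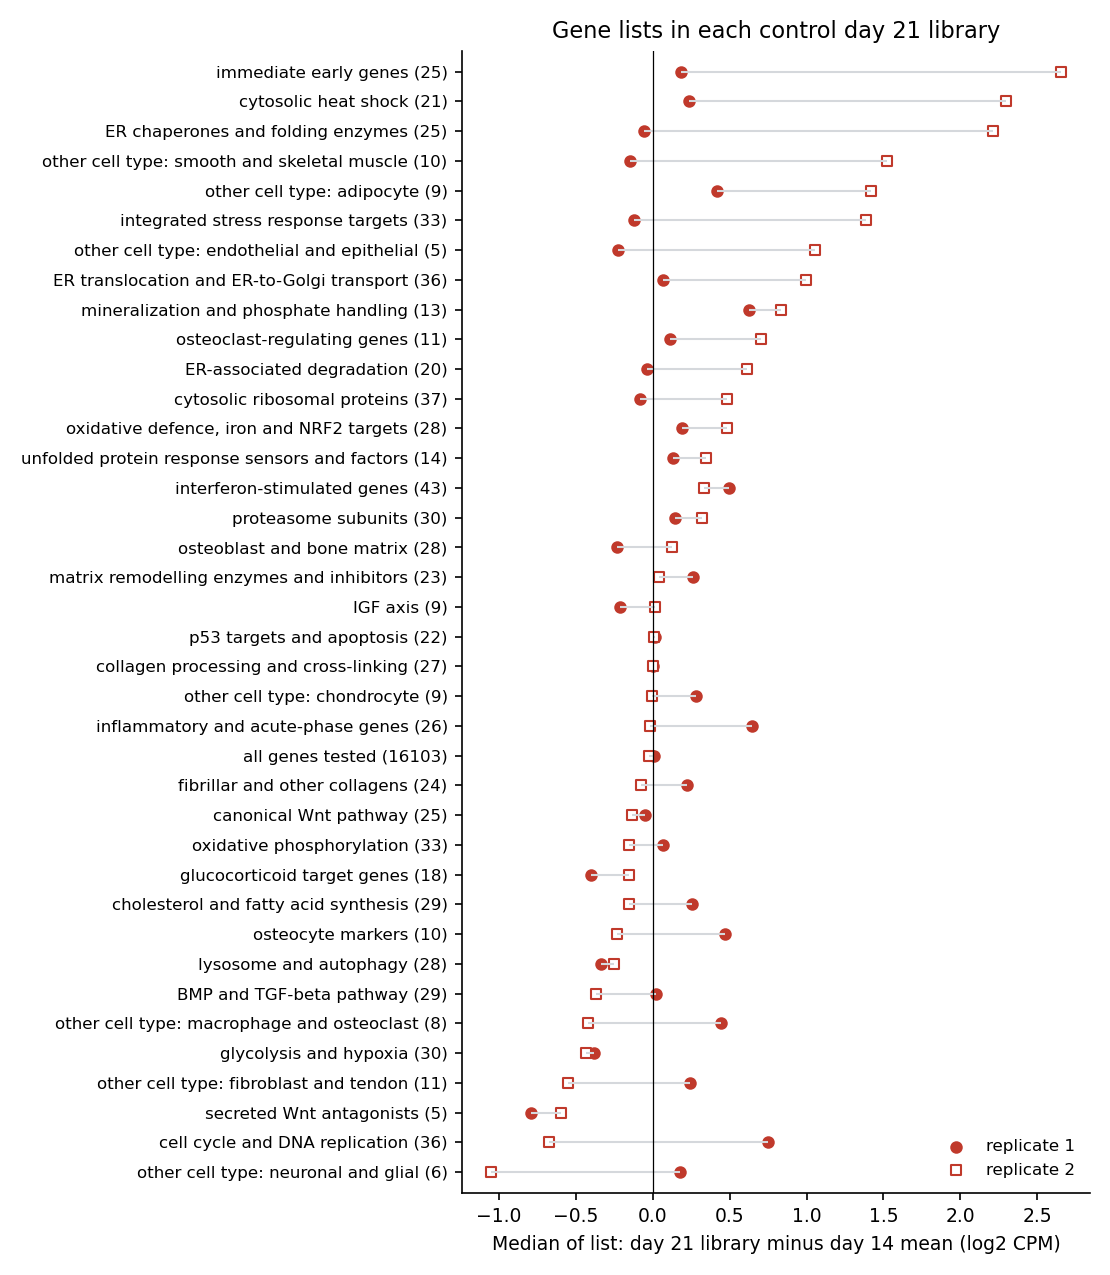
Median difference from the control day 14 mean (horizontal axis, log2 CPM) for each gene list, with the number of genes tested in parentheses; circles are control day 21 replicate 1 and squares replicate 2. The ER chaperone list has medians of -0.06 and 2.21, and the cell cycle list 0.75 and -0.68.

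The cell cycle and inflammatory lists had higher medians in replicate 1 than in replicate 2. The 36 cell cycle and DNA replication genes had a median of 0.75 in replicate 1 and -0.68 in replicate 2. Of these, 0 were shared and 7 were lower in replicate 2 alone (all genes: 1170 of 16103). In the IFN arm 19 of the 36 rose (all genes: 16.6%) and 3 fell (all genes: 14.1%), with a median of 0.44. Top2a, the topoisomerase of dividing cells, had 234 and 62.5 CPM at day 21, against 121 and 132 CPM at day 14, and Mki67 had 126 and 52.3 CPM at day 21, against 72.0 and 130 CPM at day 14. The 2 day 21 libraries thus lay on opposite sides of day 14 for Top2a, and for Mki67 replicate 1 lay within the day 14 values. Of 26 inflammatory and acute-phase genes tested, replicate 1 was the highest of the 4 libraries for 11 and replicate 2 for 7, with list medians of 0.65 in replicate 1 and -0.02 in replicate 2. In all, 3 were shared higher (all genes: 1.31%). In replicate 2 alone, 2 were higher and 4 lower (all genes: 1159 and 1170 of 16103). Ptgs2, given above, is a member with replicate 2 far higher. The members named next were chosen after their values were seen. Cxcl5, a chemokine, had 265 and 19.0 CPM at day 21, against 55.6 and 50.6 CPM at day 14. Lcn2, an iron-binding acute-phase protein, had 332 and 76.7 CPM at day 21, against 105 and 97.2 CPM at day 14. Ccl2 had 109 and 23.0 CPM at day 21, against 12.02 and 22.5 CPM at day 14. Ccl7, its neighbour in function, was shared higher with 62.7 and 46.1 CPM at day 21, against 8.04 and 21.8 CPM at day 14.

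Interferon-stimulated genes, untreated here, had list medians of 0.50 in replicate 1 and 0.33 in replicate 2. Of 43 tested, 1 was shared higher (Cxcl10, all genes: 1.31%). Irf7, a factor that amplifies the interferon response, had 13.4 and 10.6 CPM at day 21, against 3.10 and 6.50 CPM at day 14. Its log2 fold change of 1.32 ± 0.47 did not pass the edgeR quasi-likelihood test (adjusted p = 0.706). In the IFN arm 31 of these 43 genes fell by the same test (all genes: 14.1%). Without control day 14 replicate 1 the control value for Irf7 was 0.85.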

How the data were processed

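Messenger RNA of MC3T3-E1 cells was sequenced in 12 libraries. The submitters' processing notes name HISAT2, SAMtools and featureCounts, and the mm10 build; versions, annotation and strand setting are not given in the sources used here. The authors deposited raw counts per gene, for 55291 symbols, of which 53292 match GENCODE M21; the 37 mitochondrial symbols have 0 counts. Overlapping genes and close copies are therefore uncertain.

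Counts were tested in R 4.3.3 with edgeR 4.0.16 (filterByExpr, TMM, robust quasi-likelihood F test, Benjamini-Hochberg adjusted p below 0.05). The control comparison used the 6 control libraries, the IFN comparison the 6 IFN libraries and their difference all 12, whose spread is then shared between arms of unequal spread. CPM refers to TMM-scaled library sizes, and log2 CPM has a prior count of 2. Fold changes are log2 ± SE.

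Classes need a gap of 1 log2 unit. Named genes are fixed bone and stress genes, the 10 widest shared and replicate 2 gaps per direction among genes averaging at least 1 log2 CPM, and up to 4 members per list, of which a selection is printed; others named were chosen after their values were seen. Members and lists were chosen with earlier results of these data known. The procedure was run on simulated data. A minimum recovery of changed genes was required only at a spread below that of the control libraries. That run therefore does not tell how many changed genes the control test would miss. Alternatives were other scalings, filters, gaps and prior counts, DESeq2 1.42.0, limma 3.58.1 voom with library weights, a replicate block, all 12 or only 4 libraries, and each library left out.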

Additional observations from a re-analysis of the deposited data

How the results depend on the processing

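The control count of 0 called genes stayed 0 with RLE scaling, library size alone, a filter of 1 CPM, only the 4 libraries compared, limma voom with library weights and a log2 fold change limit. It was 77 with DESeq2, 309 with no filter on low counts and 5 with all 12 libraries (among them Ereg and Serpinb2 higher, Maf and Cacna1a lower, adjusted p 0.0146 to 0.0218 by edgeR). Of the DESeq2 calls, 44 were shared higher, 16 shared lower, 13 higher and 1 lower in replicate 2 alone, and 3 in neither class. With single libraries left out it ran from 0 to 670, the highest without control day 21 replicate 1, where day 21 is replicate 2 alone. With the replicate block the control count was 0 and the IFN count 4963; replicate 2 minus replicate 1 correlated weakly between day 21 and day 14 across genes (r = 0.124, 2 pairs), so the numbers were not taken to pair the libraries. The IFN count of 4794 was 0 with all 12 libraries and 591 with a log2 fold change limit of 1, and ran from 3065 to 4861 with single libraries left out. The difference between arms had 31 calls with DESeq2 and 386 with no filter, and 0 to 2584 with single libraries left out, the highest again without control day 21 replicate 1. Shared genes numbered 600 higher and 573 lower at a gap of 0.5 log2 unit, 35 and 10 at a gap of 2, and 97 and 75 with a filter of 1 CPM. Without 1 day 14 library they numbered 520 to 707 higher and 476 to 477 lower, a rule that then has fewer libraries to meet. Genes of replicate 2 alone numbered 2491 higher and 2733 lower at the gap of 0.5, 272 and 209 at 2, and 666 and 2105 with library size alone. They ran from 1317 to 1434 higher and 1331 to 1496 lower with single libraries left out. The shares of shared genes called in the IFN arm, 38.7% and 13.9%, and 78.9% and 37.1% for genes averaging at least 1 log2 CPM, were all 0 with the IFN comparison fitted on all 12 libraries. Leaving out single IFN libraries gave 70.2% to 78.9% for the higher and 25.7% to 40% for the lower of these last shares. With library size alone Sparc turned to -0.046 and Sox9 to -0.10 in control, and Id2 to -0.0051 in IFN. With single libraries left out, the control log2 fold change ran from -0.79 to 0.97 for Alpl, -0.015 to 0.23 for Sparc, -0.63 to 0.072 for Runx2, -0.30 to 0.58 for Ibsp, -2.08 to 2.84 for Dmp1, -0.11 to 0.17 for Sox9 and -0.036 to 0.92 for Col1a1. For Hspa5 it ran from -0.090 to 4.67, for Pdia4 from -0.11 to 4.29 and for Hmox1 from -0.15 to 4.81, each lowest without replicate 2. In IFN, Maf ran from -0.11 to 0.049, Id2 from -0.048 to 0.11, Hmox1 from -0.11 to 0.022 and Tnn from -0.062 to 0.83. The cause of these shifts was not tested. With 2 libraries a group and 3 residual degrees of freedom an arm, a gene that misses the threshold is not shown to be unchanged.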

Other observations

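Lysosome and autophagy genes lay low and proteasome genes high in both control day 21 libraries by small amounts. Of 28 lysosome and autophagy genes tested, 13 lay lower without overlap and 2 higher (all genes: 19.2% and 18.5%), with medians of -0.34 log2 units in replicate 1 and -0.25 in replicate 2. In the IFN arm 8 of the 28 fell and 3 rose (edgeR quasi-likelihood test; all genes: 14.1% and 16.6%). Of 30 proteasome subunits, 12 lay higher without overlap (all genes: 18.5%), with medians of 0.14 and 0.32, while in the IFN arm 20 fell (all genes: 14.1%) and 1 rose. With library size alone the proteasome median in replicate 2 was -0.02. No member of either list was called in control by edgeR, with 5 lysosome and 0 proteasome members at an unadjusted p below 0.05, nor by DESeq2. With no filter on low counts edgeR called 1 lysosome member.

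Glycolysis and hypoxia genes had medians of -0.38 and -0.44 in the day 21 replicates over 30 genes. Their summed level was 12232 and 13245 CPM at day 21, against 27611 and 9642 CPM at day 14, so that day 14 replicate 1 was the high library. Bnip3, a hypoxia-induced mitophagy gene, had 139 and 108 CPM at day 21, against 611 and 88.3 CPM at day 14. Its log2 fold change of -1.50 therefore rests on 1 day 14 library.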
